A study of Mus musculus with 8 samples.

Results

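The genes described here are 40 type I interferon-stimulated genes of the mouse, a set listed by symbol and looked up by Ensembl identifier. All 40 were found among the 49315 gene identifiers of the count tables, and all 40 passed the filter on low counts that left 14909 genes for testing. RNA sequencing gave their transcript counts in neutrophils of 2-month-old mice of the inbred strain C57BL/6. Casein, a milk protein used as a sterile irritant, had drawn the cells into the peritoneal cavity, and they were purified as low-density and high-density neutrophils. The 8 libraries formed 4 groups of 2, namely low-density and high-density cells of mice deficient in the histamine H2 receptor (H2R) and low-density and high-density cells of wild-type mice. The allele of the deficient mice, the density medium and whether an animal gave more than 1 library or was pooled with others are not given in the labels. P-values therefore reflect the spread of these libraries alone, and that spread may be technical.

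Type I interferons bind a receptor made of the chains Ifnar1 and Ifnar2, whose kinases Jak1 and Tyk2 phosphorylate Stat2. Stat2 joins Irf9 in a complex that enters the nucleus and binds interferon-stimulated response elements, short DNA motifs near the start of its target genes. The products of those genes bind or degrade viral RNA, sense foreign nucleic acid, trap virus at membranes, modify proteins and amplify or restrain the pathway itself, and neutrophils carry many of their transcripts without infection.

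The promoters of 4 of these genes are shown first, because the results below turn on Isg15, the pair Ifit3 and Ifit3b, and Bst2, and because they hold repeated copies of the response element's core. The motif searched was GAAANNGAAA on both strands, where N is any base and matches may overlap. It was looked for in RefSeq promoter windows of the build GRCm38.p6 that run from 250 bases before to 50 bases after a gene's start. A window was found for 29 of the 40 genes and held the motif for 16 of them, against 3.99% of the 27025 genes in the table. There were 2 or more matches for 8 of the 29 genes, against 0.225% of all windows. The latter share counts windows and not genes, and overlapping matches count separately in both. In the sequences, read 5′ to 3′ on the gene's strand, capitals mark every base of a match.
Isg15, chr4:156200769-156201068, minus strand: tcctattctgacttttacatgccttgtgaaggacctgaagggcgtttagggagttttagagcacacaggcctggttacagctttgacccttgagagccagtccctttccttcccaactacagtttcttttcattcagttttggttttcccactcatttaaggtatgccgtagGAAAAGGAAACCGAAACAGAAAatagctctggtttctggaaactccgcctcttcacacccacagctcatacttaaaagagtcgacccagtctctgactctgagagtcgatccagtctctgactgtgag
Ifit3, chr19:34583279-34583578, plus strand: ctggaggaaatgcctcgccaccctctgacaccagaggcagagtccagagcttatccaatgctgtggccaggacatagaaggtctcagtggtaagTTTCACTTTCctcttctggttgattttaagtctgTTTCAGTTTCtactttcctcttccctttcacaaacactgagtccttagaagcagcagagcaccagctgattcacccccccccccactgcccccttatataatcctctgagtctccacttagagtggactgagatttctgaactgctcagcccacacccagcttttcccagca
Ifit3b, chr19:34607707-34608006, plus strand: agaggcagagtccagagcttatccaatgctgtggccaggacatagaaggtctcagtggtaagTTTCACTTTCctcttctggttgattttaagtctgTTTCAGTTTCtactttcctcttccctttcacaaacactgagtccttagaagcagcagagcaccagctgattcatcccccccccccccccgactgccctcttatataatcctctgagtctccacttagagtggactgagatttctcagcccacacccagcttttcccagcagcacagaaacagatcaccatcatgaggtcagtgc
Bst2, chr8:71537423-71537722, minus strand: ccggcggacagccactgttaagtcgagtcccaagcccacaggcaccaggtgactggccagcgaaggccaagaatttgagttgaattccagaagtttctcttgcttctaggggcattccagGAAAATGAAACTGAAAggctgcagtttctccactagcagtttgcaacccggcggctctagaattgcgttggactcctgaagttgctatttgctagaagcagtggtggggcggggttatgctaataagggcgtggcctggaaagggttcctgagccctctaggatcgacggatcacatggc
In Isg15, 3 overlapping matches began 78, 72 and 66 bases before the start, and in Bst2 a pair of overlapping matches began 130 and 124 bases before it. In Ifit3 and Ifit3b the matches lay on the opposite strand, so that the capitals show the reverse complement of the motif. Set against each other without gaps at a shift of 32 bases, the windows of Ifit3 and Ifit3b had the same base at 75.0% of 268 positions. Their runs of C differ in length, so bases beyond them were compared out of step and 75.0% is a lower bound. The match is a description of letters, and 13 genes with a window had none, among them Samd9l, Irf7 and Irf9. Not matched to a window were Mx1, Mx2, Parp14, Parp9, Ifi204, Rtp4, Zbp1, Oas2, Usp18, Dhx58 and Ifi27l2a.

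Several of the genes lie side by side in the genome, in the coordinates of the count tables (GRCm38). The 5 Ifit genes lie on chromosome 19, with Ifit3 at 34583531 to 34588731 and Ifit3b at 34607970 to 34613401 on the plus strand. Oas1a, Oas1g, Oas2, Oas3, Oasl1 and Oasl2, which encode, or resemble genes for, enzymes that make the oligoadenylate activating an RNA-cutting nuclease, lie on chromosome 5. Parp9, Parp14, Dtx3l, Rtp4, Mx1 and Mx2 lie on chromosome 16. Some of these genes are near copies, and reads from them may be lost or moved between them. Of the 50-base windows in its transcripts, Ifit3 shared 51.2% with Ifit3b and Oas1a shared 57.6% with Oas1g, and Ifi204 shared 20.0% with other genes. The exons of Parp9 and Dtx3l overlap on opposite strands over 9.4% and 8.0% of their lengths, so without a stated strand setting some of their reads cannot be told apart. The same holds for Ifi35, with 16.8% of its exons opposite another gene.

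Expressed per length, the genes spanned a wide range of levels, measured as TPM, transcript levels corrected for length and depth, computed from counts and exon lengths. Ifitm3, a membrane protein that hinders virus entry, was the most abundant, with a mean of 1580 TPM over the 8 libraries. Isg15, a ubiquitin-like modifier, had 453 TPM, and Samd9l, an inhibitor of translation, had 344 TPM. At the other end Mx1 and Mx2, GTPases that trap viral nucleoproteins, had 0.892 and 0.381 TPM. Ifi44, an antiviral protein of unsettled mechanism, had 0.129 TPM. The common laboratory strains carry a defective Mx1 allele, and Mx2 is annotated as a polymorphic pseudogene.

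Depth was even, with 19862716 to 24199215 counts per library, so that a count of 0 leaves room for 0.124 to 0.151 CPM depending on the library (3 counts of the total, counting error only). CPM are counts relative to a fixed library size, which was scaled by the trimmed mean of M values (TMM) unless total counts are named. The TMM factors were 1.49 and 1.34 in the H2R-deficient low-density libraries and 0.772 and 0.742 in the H2R-deficient high-density libraries. They were 1.24 and 1.11 in the wild-type low-density libraries, against 0.777 and 0.808 in the wild-type high-density libraries, so the scaling itself differs between densities. Hrh2, which encodes H2R, had 215 to 599 counts in the 4 H2R-deficient libraries and 556 to 2003 in the 4 wild-type libraries, and the labels do not say which part of the gene was changed. The neutrophil markers S100a8 and Ly6g were high in every library, with at least 156251 and 1926 counts.

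The first comparison asks how low-density cells differ from high-density cells in mice labelled deficient in the receptor. In H2R-deficient mice, 31 of the 40 genes were called lower in low-density cells and 1, Mx1, higher (edgeR quasi-likelihood test, adjusted p under 0.05). Of all genes tested, 23.9% were called lower and 30.0% higher. The median log2 fold change of the 40 genes was -1.47, beside 0.10 for all genes tested. In 36 of the 40, both low-density libraries lay below both high-density libraries, which held for 37.1% of all genes. Summed over the 40 genes, the level was 2262 and 3154 CPM in the low-density libraries, against 7242 and 8301 CPM in the high-density libraries. In a bulk sample, fewer cells that make these transcripts and fewer transcripts per cell cannot be told apart.

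**Figure D1:**
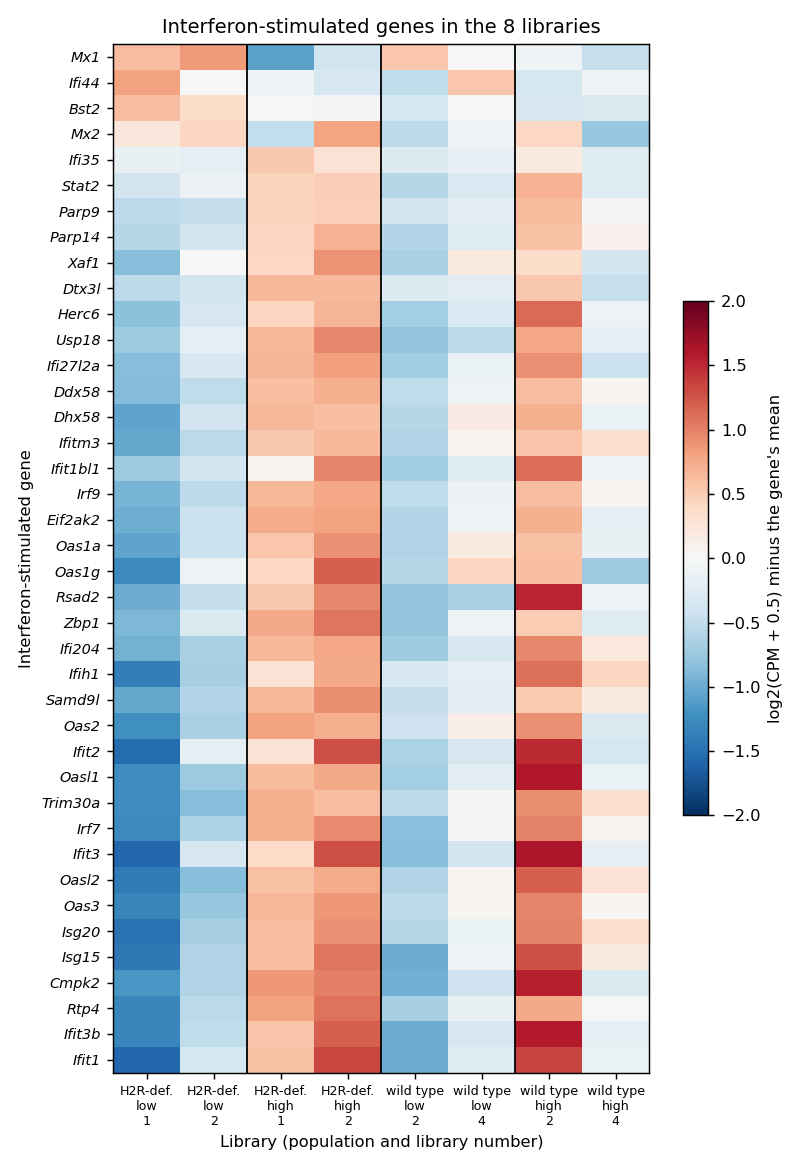
Level of each of the 40 genes (rows, sorted by the fold change in H2R-deficient cells) in each of the 8 libraries (columns), as log2(CPM + 0.5) minus the gene's mean over the libraries, on TMM-scaled library sizes. Red is above and blue below the gene's mean, and wild-type high-density library 2 is redder than library 4 for 38 of the 40 genes.

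The median fold change moved with the scaling. A change of scaling shifts the fold changes of all genes by nearly the same amount, so the gap to the median of all genes could hardly change. With total counts as the only scaling, the median of all genes tested was 1.0 and that of the 40 genes -0.58. The gap between them was -1.58, beside -1.57 with TMM. Under total counts 8 of the 40 were called lower, against 2.61% of all genes, and 2 were called higher, Mx1 and Bst2, against 51.6% of all genes. The 8 were Isg20, Oas3, Oasl2, Irf7, Rtp4, Trim30a, Samd9l and Ifi204. Over all genes the split was 4478 higher and 3566 lower with TMM, and 7690 higher and 389 lower with total counts. As a share of all gene counts, with no scaling, the 40 genes took 0.338% and 0.424% in the low-density libraries, against 0.559% and 0.616% in the high-density libraries.

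Among the transcription factors that carry the interferon signal to DNA, both Irf7 and Irf9 fell in H2R-deficient low-density cells. Irf9, the DNA-binding partner of Stat2, had 69.6 and 92.3 CPM in low-density libraries, against 211 and 227 CPM in high-density libraries. Here and below, paired values follow the library numbers, 1 then 2 for H2R-deficient and 2 then 4 for wild-type mice. The groups did not overlap, and the log2 fold change was -1.44 ± 0.25 (SE, n = 2 libraries each, edgeR adjusted p = 0.00145). Irf7, which drives a later wave of interferon genes, had 55.3 and 87.0 CPM in low-density libraries, against 222 and 259 CPM in high-density libraries. Its log2 fold change was -1.76 ± 0.38 (edgeR adjusted p = 0.00511). Stat2 was not called, with 38.6 and 45.6 CPM in low-density libraries, against 67.6 and 69.9 CPM in high-density libraries (log2 fold change -0.71 ± 0.28, edgeR adjusted p = 0.0586).

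All 5 sensors of nucleic acid were called lower in the same comparison, with log2 fold changes between -1.53 and -1.34. Ddx58, which encodes the RNA helicase RIG-I, had 78.2 and 101 CPM in low-density libraries, against 218 and 234 CPM in high-density libraries (edgeR adjusted p = 0.00193). Ifi204, a DNA-binding protein of the PYHIN family, had 137 and 168 CPM in low-density libraries, against 417 and 452 CPM in high-density libraries. Its log2 fold change was -1.51 ± 0.26 (edgeR adjusted p = 0.00161). The other sensors called were Ifih1 and Dhx58, relatives of RIG-I, and Zbp1, which binds Z-form nucleic acid.

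Of the 7 RNA-binding effectors, 4 were called lower. Isg20, an exonuclease that degrades RNA, had 31.8 and 57.0 CPM in low-density libraries, against 138 and 170 CPM in high-density libraries (log2 fold change -1.80 ± 0.33, edgeR adjusted p = 0.00210). Eif2ak2, the kinase PKR that halts translation on double-stranded RNA, had 36.6 and 53.5 CPM in low-density libraries, against 121 and 126 CPM in high-density libraries (log2 fold change -1.45 ± 0.32, edgeR adjusted p = 0.00511). Neither gene's groups overlapped. The Ifit genes, whose proteins bind foreign RNA ends, varied more between libraries of a group. Ifit1 had 19.2 and 45.4 CPM in low-density libraries, against 87.5 and 148 CPM in high-density libraries. Ifit1 and Ifit3b were called lower, with log2 fold changes of -1.87 ± 0.61 and -1.85 ± 0.61 (edgeR adjusted p = 0.0361 and 0.0369). Ifit2, Ifit3 and Ifit1bl1 had log2 fold changes of -1.68, -1.77 and -1.36 and were not called, with edgeR adjusted p-values of 0.0860, 0.0594 and 0.0506. Ifit3 and Ifit3b, which share sequence, thus lay on either side of the threshold with nearly the same fold change.

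Of the 9 genes grouped as nucleotide and oligoadenylate effectors, 8 were called lower and Oas1g was not. Samd9l, named above as an inhibitor of translation, was counted in this group and had the lowest p of the 40 genes. It had 347 and 471 CPM in low-density libraries, against 1118 and 1349 CPM in high-density libraries. Its groups were far apart, and its log2 fold change was -1.59 ± 0.23 (edgeR adjusted p = 0.000698). Oas3 had 161 and 237 CPM in low-density libraries, against 635 and 732 CPM in high-density libraries (edgeR adjusted p = 0.00262), and Oasl2 had 128 and 190 CPM in low-density libraries, against 515 and 570 CPM in high-density libraries (edgeR adjusted p = 0.00276). Oas1a, which shares sequence with Oas1g, was called (edgeR adjusted p = 0.00768), and both had a log2 fold change of -1.47. Rsad2, the radical SAM enzyme viperin, had 83.0 and 118 CPM in low-density libraries, against 240 and 322 CPM in high-density libraries (log2 fold change -1.48 ± 0.47, edgeR adjusted p = 0.0281). Cmpk2, a mitochondrial nucleotide kinase encoded beside it, was also lower (log2 fold change -1.84 ± 0.55, edgeR adjusted p = 0.0265).

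All 7 genes of ubiquitin-like, ubiquitin and ADP-ribosylation pathways were called lower. Isg15 had 45.2 and 81.0 CPM in low-density libraries, against 187 and 257 CPM in high-density libraries, which gives 63.1 ± 25.3 CPM at low and 222 ± 49.7 CPM at high density (SD, n = 2). Its log2 fold change was -1.82 ± 0.46 (edgeR adjusted p = 0.0118). Trim30a, a ubiquitin ligase of the TRIM family, had 159 and 209 CPM in low-density libraries, against 613 and 579 CPM in high-density libraries (log2 fold change -1.70 ± 0.27, edgeR adjusted p = 0.00102). Usp18, which removes Isg15 from proteins and restrains the receptor, had a log2 fold change of -1.28 ± 0.33 (edgeR adjusted p = 0.00980). Parp14, an ADP-ribosyltransferase, had 178 and 206 CPM in low-density libraries, against 356 and 431 CPM in high-density libraries (log2 fold change -1.04 ± 0.22, edgeR adjusted p = 0.00422). Parp9 and its partner ligase Dtx3l changed by -0.97 and -1.11 on the log2 scale, and Herc6, the main ligase for Isg15 in the mouse, by -1.13.

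Among the membrane genes, Ifitm3 and Rtp4 were called lower and Bst2 was not called. Ifitm3 had 200 and 281 CPM in low-density libraries, against 591 and 638 CPM in high-density libraries (log2 fold change -1.35 ± 0.26, edgeR adjusted p = 0.00241). Rtp4, a chaperone that carries receptors to the cell surface, had 47.9 and 82.4 CPM in low-density libraries, against 210 and 256 CPM in high-density libraries (log2 fold change -1.84 ± 0.34, edgeR adjusted p = 0.00232). Of the 4 genes of other function, Ifi27l2a, Ifi35 and Xaf1 were called lower, with log2 fold changes of -1.33, -0.59 and -1.08. Xaf1, which binds an inhibitor of apoptosis, lay at the edge of the threshold (edgeR adjusted p = 0.0499), and Ifi35 reversed to 0.31 with total counts.

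Mx1 rose, and Bst2 had a positive fold change just short of the threshold. Mx1 had 60 and 58 counts in the low-density libraries, against 3 and 9 counts in the high-density libraries of H2R-deficient mice. On the scaled level that is 1.85 ± 0.27 CPM in low-density and 0.374 ± 0.28 CPM in high-density libraries (SD, n = 2), with a log2 fold change of 2.31 ± 0.60 (edgeR adjusted p = 0.0102). Its 3 counts in high-density library 1 lie at the counting floor, and without high-density library 1 Mx1 was not called. Bst2, the tether that holds budding virus at the cell surface, had 16.2 and 13.5 CPM in low-density libraries, against 10.4 and 10.2 CPM in high-density libraries. The groups did not overlap, and the log2 fold change of 0.53 ± 0.21 was not called (edgeR adjusted p = 0.0530). Bst2 was called with total counts, without the filter on low counts, in a fit of the H2R-deficient libraries alone and when wild-type low-density library 4 was left out. Bst2 carries a pair of motif matches in its window, as Isg15 carries 3, and their fold changes had opposite signs. Mx2 overlapped between the groups, Ifi44 had at most 27 counts in any library, and neither was called.

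**Figure D2:**
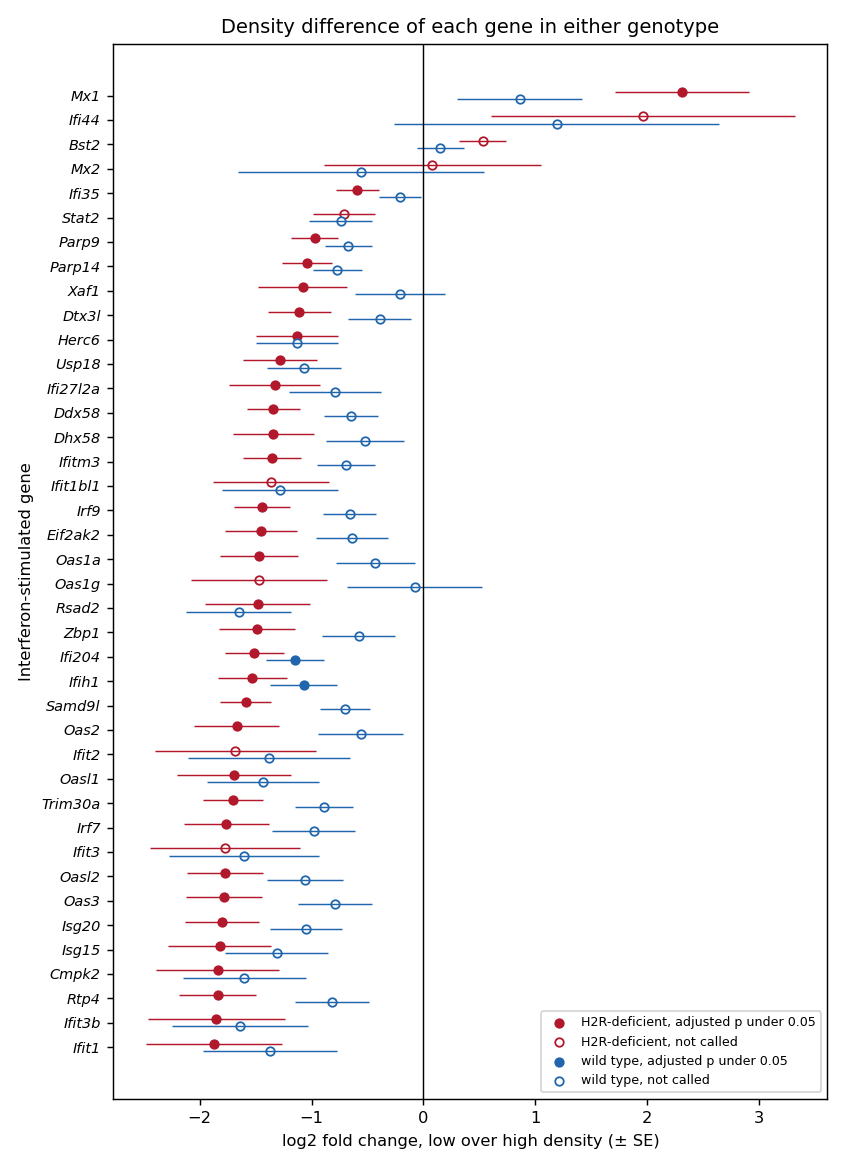
Log2 fold change of low over high density (x axis, ± SE, TMM-scaled edgeR fit) for each of the 40 genes (y axis) in H2R-deficient cells (red) and wild-type cells (blue). Filled points passed an adjusted p of 0.05, which 32 did in H2R-deficient and 2 in wild-type cells, and most blue points lie nearer to 0 than the red point of the same gene.

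The same comparison in wild-type mice gave far fewer calls. Of the 40 genes, 2 were called lower and 0 higher, where 4.15% of all genes were called lower and 8.51% higher by edgeR. The share called lower was near that of all genes, so these calls are no result about the 40 genes as a set. At an unadjusted p under 0.05 there were 24 of the 40. The median log2 fold change was -0.78, beside 0.10 for all genes. In 24 of the 40, both low-density libraries lay below both high-density libraries, which held for 27.0% of all genes, and 15 overlapped. The summed level was 3133 and 4374 CPM in low-density libraries, against 8564 and 5058 CPM in high-density libraries. With total counts as the only scaling, the median was -0.21 beside 0.67 for all genes, and 0 of the 40 were called lower and 1, Bst2, higher. All genes then split into 32.3% higher and 0.832% lower.

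The 2 genes called in wild-type cells were Ifi204 and Ifih1. Both encode sensors, but so few calls, near the share of all genes, show no common function. Ifi204 had 160 and 210 CPM in low-density libraries, against 515 and 306 CPM in high-density libraries (log2 fold change -1.15 ± 0.26, edgeR adjusted p = 0.0273). Ifih1, which encodes the long double-stranded RNA sensor MDA5, had 51.7 and 56.6 CPM in low-density libraries, against 140 and 87.6 CPM in high-density libraries (log2 fold change -1.07 ± 0.30, edgeR adjusted p = 0.0497). Neither gene's groups overlapped, and the high-density libraries were further apart than the low-density libraries. Samd9l had 509 and 609 CPM in low-density libraries, against 1019 and 801 CPM in high-density libraries, and was not called (log2 fold change -0.70 ± 0.22, edgeR adjusted p = 0.0666). Isg15 had 61.7 and 115 CPM in low-density libraries, against 299 and 139 CPM in high-density libraries (log2 fold change -1.31 ± 0.46, edgeR adjusted p = 0.0891). Mx1 had 39 and 23 counts in low-density libraries, against 14 and 9 counts in high-density libraries, and was not called (edgeR adjusted p = 0.308).

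**Figure D3:**
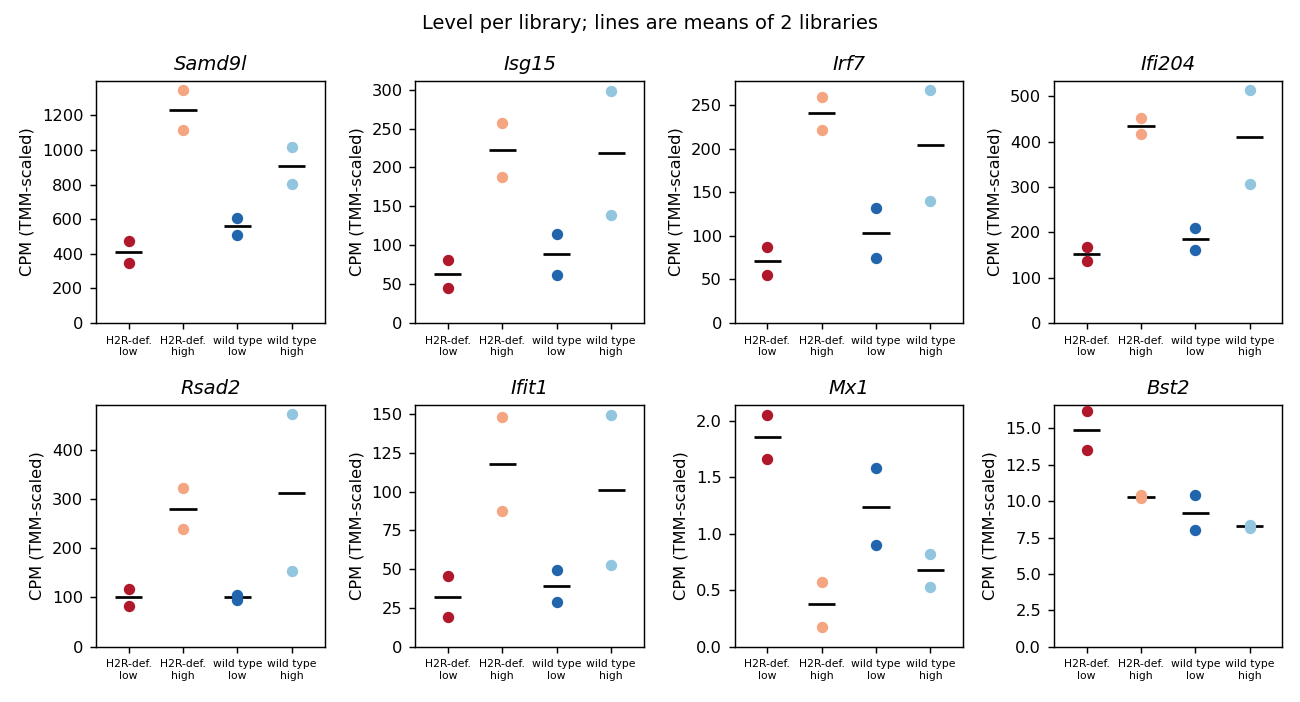
Level of 8 of the genes in TMM-scaled CPM (y axes, from 0) for each library (points) of the 4 groups, with the mean of 2 libraries as a line. The wild-type high-density libraries are widely spaced for Isg15, Rsad2 and Ifit1, and Mx1 and Bst2 are highest in H2R-deficient low-density cells.

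The wild-type high-density libraries differed from each other in these genes more than in most. Library 2 was above library 4 for 38 of the 40 genes, by a median of 0.91 on the log2 scale, and by over 2-fold for 15 of them. Over all genes the median absolute difference of these libraries was 0.31. Of all genes 43.5% were higher in library 2, and 2.08% over 2-fold higher. The largest gaps, chosen here after their values were seen, were in Ifit2 and Cmpk2 with 1.84 and in Ifit3 and Ifit3b with 1.78. Rsad2 had 473 CPM in library 2 and 153 CPM in library 4, where the low-density libraries had 95.1 and 105 CPM. The share of all gene counts taken by the 40 genes was 0.666% in library 2 and 0.409% in library 4, and the low-density libraries had 0.390% and 0.487%.

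In the other groups the libraries differed less. H2R-deficient low-density library 2 was above library 1 for 37 of the 40 genes, by a median of 0.53. Wild-type low-density library 4 was above library 2 for 39, by 0.48, and H2R-deficient high-density library 2 was above library 1 for 33, by 0.24. Of all genes, 41.1%, 51.3% and 49.5% were higher in the lower-numbered library of these pairs, in the same order. The median absolute difference was 0.54, 0.50 and 0.26 for the 40 genes, beside 0.21, 0.25 and 0.27 for all genes. Within every group the 40 genes thus moved mostly in the same direction. In H2R-deficient high-density cells they did so by no more than genes in general. Red cell transcripts also differed between the wild-type high-density libraries, Hbb-bs having 522 counts in library 2 and 2052 in library 4, and Hrh2 had 2003 and 700 counts. The median log2 difference, library 2 minus library 4, was -1.71 for 5 erythroid, -1.25 for 5 mast cell, -0.66 for 9 macrophage and -0.49 for 7 dendritic cell markers, and 0.16 for 12 neutrophil markers, beside 0.91 for the 40 genes. In the low-density pairs neutrophil markers moved with the 40 genes. Library 1 minus library 2 of H2R-deficient mice gave -0.56 for the markers and -0.53 for the 40 genes, and library 2 minus library 4 of wild-type mice gave -0.45 and -0.48. The part of these markers and of Hrh2 in the differences was not tested.

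The wild-type result rests on which of these libraries is used. Without wild-type high-density library 2, the median log2 fold change of the 40 genes was -0.34, edgeR called 0 of them, against 0.233% of all genes lower, and 1 had an unadjusted p under 0.05. Without library 4 the median was -1.15 and 20 were called lower, against 4.36% of all genes. Leaving out a wild-type low-density library also gave 0 calls, with medians of -0.59 without library 2 and -1.11 without library 4. In these fits the lone library is assumed to vary like the other groups. DESeq2 on all 8 libraries called 21 of the 40 lower, where it called 9.56% of all genes lower, and limma-voom called 1, where it called 3.98%. In H2R-deficient cells the 4 left-out libraries of that genotype left between 17 and 26 calls, the lowest without low-density library 1, where the median was -1.19.

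**Figure D4:**
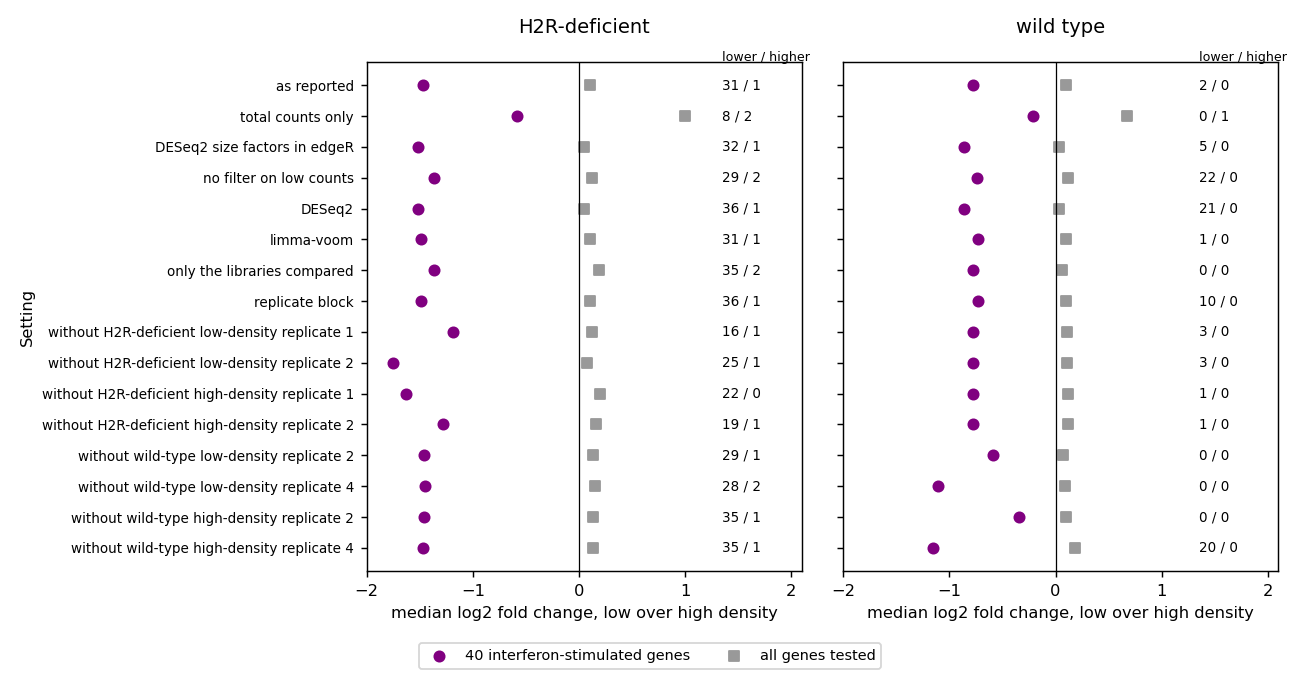
Median log2 fold change of low over high density (x axes) for the 40 genes (purple circles) and for all genes tested (grey squares) under each setting (y axis), in H2R-deficient cells (left) and wild-type cells (right), with the number of the 40 called lower and higher beside each. A change of scaling shifts all genes nearly alike, so both medians move together between TMM and total counts. In wild-type cells the calls run between 0 and 22.

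The genotypes were then compared within each population. In low-density cells 0 of the 40 genes were called between H2R-deficient and wild-type mice by edgeR, DESeq2 or limma-voom, and 0 of all genes (0%) were called by edgeR. Of all genes DESeq2 called 5.84% and limma-voom 0.0537%. At an unadjusted p under 0.05 edgeR gave 5 of the 40. The median log2 fold change, H2R deficient over wild type, was -0.28, with 11 genes lower in both H2R-deficient libraries, where 26.6% of all genes were. Trim30a had 159 and 209 CPM in H2R-deficient libraries, against 261 and 384 CPM in wild-type libraries (log2 fold change -0.81 ± 0.26, edgeR adjusted p = 0.145). Bst2 had the lowest p of the 40 and was higher in both H2R-deficient libraries, with 16.2 and 13.5 CPM, against 8.02 and 10.4 CPM in wild-type libraries (log2 fold change 0.69 ± 0.20, edgeR adjusted p = 0.126). With total counts the median of the 40 was -0.02, beside 0.32 for all genes. Without H2R-deficient library 1 the median was -0.12, and without library 2 it was -0.68. Without wild-type library 4 it was -0.06, and without library 2 it was -0.56.

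In high-density cells 0 of the 40 were called by edgeR, DESeq2 or limma-voom, where edgeR called 31 of all genes (0.208%), DESeq2 4.54% and limma-voom 0.0201%. None of the 40 had an unadjusted p under 0.05 by edgeR. The median log2 fold change was 0.20, with 9 genes higher in both H2R-deficient libraries than in both wild-type libraries, against 21.1% of all genes. Zbp1 had 160 and 198 CPM in H2R-deficient libraries, against 134 and 78.6 CPM in wild-type libraries (log2 fold change 0.75 ± 0.33, edgeR adjusted p = 0.269). The sign of the median depended on the wild-type library used. It was 0.77 without wild-type library 2, with 17 genes at an unadjusted p under 0.05 and 0 called, and -0.18 without library 4.

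Whether the density difference varied with genotype was tested directly, as the log2 fold change in H2R-deficient minus that in wild-type cells. By edgeR 0 of the 40 and 0 of all genes (0%) were called, with 2 of the 40 at an unadjusted p under 0.05, and DESeq2 and limma-voom also called 0 of the 40. Of all genes DESeq2 called 6.35% and limma-voom 0%. The median difference was -0.50 on the log2 scale. Samd9l had a log2 fold change of -1.59 in H2R-deficient and -0.70 in wild-type cells, a difference of -0.89 ± 0.32 (edgeR adjusted p = 0.161). Irf9 differed by -0.78 ± 0.34 (edgeR adjusted p = 0.232). The larger number of calls in H2R-deficient cells is thus not shown to be a difference between the genotypes. The median of these differences was -1.19 when wild-type high-density library 2 was left out and -0.16 when library 4 was. Under total counts 0 of the 40 were called, while 622 of all genes were called with a positive and 13 with a negative difference.

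Ordered by the group means of log2(CPM + 0.5), 29 of the 40 genes had the order H2R-deficient high density, wild-type high density, wild-type low density and H2R-deficient low density, from high to low. Neighbours of the same density mostly overlapped, as 31 genes did between the high-density groups and 26 between the low-density groups, while 15 did between the wild-type groups. Another 4 genes, with the high-density groups exchanged, also had H2R-deficient low density lowest. That group was the highest for 4 genes. For Mx1 the order was H2R-deficient low density, wild-type low density, wild-type high density and H2R-deficient high density. The shares of all genes with these orders or overlaps were not computed, so they are not shown to be particular to the 40 genes.

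The interferon genes themselves were nearly absent. Of 19 genes for type I, II and III interferons, 16, among them Ifnb1 and all Ifna genes listed, had 0 counts in all 8 libraries, which allows up to 0.151 CPM in the shallowest library. Ifnk had at most 6 counts and Ifnab at most 3. Ifng, the type II interferon made by T and NK cells, had 17 and 13 counts in H2R-deficient low-density libraries, against 0 in both H2R-deficient high-density libraries. It had 0 and 5 counts in wild-type low-density libraries, against 0 in both wild-type high-density libraries. Ifng was the single interferon gene tested and was called higher in H2R-deficient low-density cells (edgeR adjusted p = 0.0328), while DESeq2 did not call it (adjusted p = 0.0741) and leaving out any library of that comparison also ended the call, with edgeR adjusted p-values between 0.0833 and 0.122.

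The receptor chains and the JAK-STAT pathway, a list of 19 genes, followed the same direction with smaller values. In H2R-deficient low-density cells 16 were called lower and 1 higher, where 23.9% and 30.0% of all genes were. The median log2 fold change of the list was -0.98, beside 0.10 for all genes. Ifnar1, a chain of the type I receptor, had 207 ± 4.34 CPM in low-density and 429 ± 48.7 CPM in high-density libraries (log2 fold change -1.05 ± 0.17, edgeR adjusted p = 0.00110). Il10rb, a chain of the type III receptor, changed by -1.06 ± 0.17 (edgeR adjusted p = 0.000991). Ptpn6, the phosphatase SHP-1 that damps the pathway, changed by -1.53 ± 0.19 (edgeR adjusted p = 0.000407). Irf8, a factor of dendritic and B cells as well as of myeloid progenitors, was the gene called higher, with 44.7 ± 11.4 CPM in low-density and 5.70 ± 1.95 CPM in high-density libraries (log2 fold change 2.97 ± 0.36, edgeR adjusted p = 0.000394). In the low-density cells of wild-type mice 3 were called lower, against 4.15% of all genes, namely Il10rb, Jak1 and Socs3. Their changes were -0.67, -0.67 and -1.09, and the median of the list was -0.54, beside 0.10 for all genes. With total counts 1 gene was called lower and 1 higher in H2R-deficient cells, against 2.61% and 51.6% of all genes. The median of the list was then -0.08 in H2R-deficient and 0.03 in wild-type cells, beside 1.0 and 0.67 for all genes. The list medians thus moved to near 0. Those of all genes moved with them, because a change of scaling shifts all genes by nearly the same amount. Without wild-type high-density library 2, 0 of the list were called in wild-type cells, and 5 were without library 4.

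The sensing pathways upstream of interferon held 22 listed genes, of which 20 were tested. In H2R-deficient low-density cells 11 were called lower and 4 higher, where 23.9% and 30.0% of all genes were, so the share called higher was below that of all genes. Myd88, the adaptor of most Toll-like receptors, and Adar, an RNA editor that hides self RNA, changed by -1.24 ± 0.22 and -1.14 ± 0.21 (edgeR adjusted p = 0.00160 and 0.00204). Mavs, the mitochondrial adaptor of RIG-I, was higher, with 6.39 ± 0.20 CPM in low-density and 0.796 ± 0.14 CPM in high-density libraries (log2 fold change 3.0 ± 0.37, edgeR adjusted p = 0.000382). Tmem173, the adaptor STING, was also higher, with 18.8 ± 1.62 CPM in low-density and 4.70 ± 1.20 CPM in high-density libraries (log2 fold change 2.00 ± 0.23, edgeR adjusted p = 0.000289). Low-density cells of wild-type mice had Mavs and Tmem173 called higher, with log2 fold changes of 1.51 ± 0.35 and 1.19 ± 0.22, and the kinase Tbk1 lower, with -0.74 ± 0.19 (edgeR adjusted p = 0.0289, 0.0162 and 0.0376). These are 2 of 20 higher and 1 of 20 lower, near the 8.51% and 4.15% of all genes, and no result about the list as a whole. With TMM scaling Ddx58 and Ifih1, genes for the RNA sensors RIG-I and MDA5, were called lower in H2R-deficient low-density cells and Mavs higher. Mavs had 236 and 177 counts in these low-density libraries, against 12 and 14 in the high-density libraries. Ddx58 and Ifih1 lost their calls with total counts. Markers of B cells and dendritic cells were also higher in these low-density cells, and their part in the rise of Mavs was not tested. With total counts 6 of the 20 were called higher and 0 lower in H2R-deficient cells, against 51.6% and 2.61% of all genes. The share called higher was thus again below that of all genes. Without wild-type high-density library 2, 0 were called in wild-type cells.

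Markers of several cell types moved with these genes. All 12 neutrophil markers were called lower in H2R-deficient low-density cells, where 23.9% of all genes were, with a median log2 fold change of -1.66. In wild-type low-density cells 4 of 12 were, against 4.15% of all genes, with a median of -0.86. With total counts 9 and 1 of the 12 were called lower, and without wild-type high-density library 2 none was in wild-type cells by edgeR. Of all genes, total counts called 2.61% lower in H2R-deficient and 0.832% in wild-type cells. With TMM the 40 genes, at -1.47 and -0.78, lay close to the medians of the neutrophil markers. Of the 40, 14 lay below the neutrophil median in H2R-deficient and 17 in wild-type cells. Summed neutrophil markers took 3.02% and 3.95% of all counts in H2R-deficient low-density libraries, against 5.87% and 5.92% in H2R-deficient high-density libraries. They took 4.27% and 5.39% in wild-type low-density libraries, against 6.00% and 5.69% in wild-type high-density libraries. Per 100 neutrophil marker counts, the 40 genes had 11.2 and 10.7 counts in H2R-deficient low-density libraries, against 9.53 and 10.4 in H2R-deficient high-density libraries. The corresponding values were 9.12 and 9.04 in wild-type low-density libraries, against 11.1 and 7.18 in wild-type high-density libraries. So set against neutrophil markers, the 40 genes together were not lower in H2R-deficient low-density cells, a ratio computed after the data had been seen and resting mainly on the abundant S100a8 and S100a9.

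**Figure D5:**
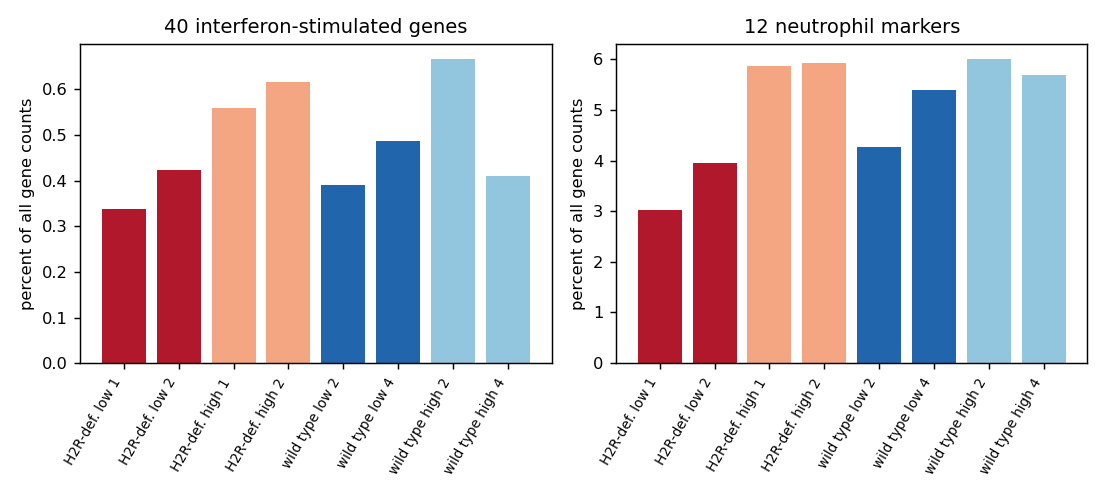
Percent of all gene counts in each library (bars, from 0, no further scaling) taken by the 40 interferon-stimulated genes (left) and by 12 neutrophil markers (right). Both are lowest in H2R-deficient low-density library 1, at 0.338% and 3.02%, and wild-type high-density library 4 is low for the 40 genes alone, at 0.409%.

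Markers of B cells and dendritic cells moved the other way. Of all genes, 30.0% were called higher and 23.9% lower in H2R-deficient low-density cells, and 8.51% and 4.15% in wild-type ones. All 8 B cell markers were called higher in low-density cells of both genotypes, with medians of 3.92 and 2.27, and summed to 737 to 941 CPM in H2R-deficient low-density libraries, against 44.6 to 65.9 CPM in H2R-deficient high-density libraries. In wild-type mice they summed to 189 to 413 CPM in low-density libraries, against 52.5 to 59.3 CPM in high-density libraries. Of 7 dendritic cell markers 5 were called higher in each genotype, and they summed to 476 to 704 CPM in H2R-deficient low-density libraries, against 9.74 to 15.2 CPM in H2R-deficient high-density libraries. In wild-type mice they summed to 209 to 454 CPM in low-density libraries, against 8.36 to 31.1 CPM in high-density libraries. Without wild-type high-density library 2, 1 of the 8 B cell and 1 of the 7 dendritic cell markers were called in wild-type cells, as were 0.541% of all genes. Of the T cell markers 1 of 7 was called higher in H2R-deficient low-density cells, a smaller share than the 30.0% of all genes, with a median of 0.13, and 3 of 7 in wild-type low-density cells, where 8.51% of all genes were. NK cell markers were called higher for 4 of 6 in H2R-deficient and 2 of 6 in wild-type low-density cells. The plasmacytoid dendritic cell markers Siglech and Klk1 had at most 13 and 1 counts, although 3 of the 4 tested genes of that list were called higher and 1 lower in H2R-deficient cells and 2 higher in wild-type cells. Monocyte markers split 2 higher and 2 lower of 6 in H2R-deficient and 1 and 1 in wild-type cells. Macrophage markers were called higher for 5 and lower for 1 of 9 in H2R-deficient and for 0 in wild-type cells. All 5 erythroid markers tested were called lower in both genotypes, eosinophil markers 1 higher and 2 lower of 4 in each, and mast cell markers lower for 3 of 5 in H2R-deficient and 0 in wild-type cells. The part of these cell types in the levels of the 40 genes was not tested.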

How the data were processed

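Counts were deposited by the authors as raw reads per gene, whole numbers in the layout of featureCounts, per the file headers. Per the submitters' processing notes, the tools were Subread 1.5.2 with featureCounts, STAR 2.5.2b, Trimmomatic 0.36 and bcl2fastq 2.17.1.14, and the build was GRCm38. Not given in the sources used here are the annotation release, the strand setting and the treatment of reads with several places. Groups and library numbers come from the labels.

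The filter was filterByExpr by group (14909 genes kept) and the scaling TMM. All 8 libraries entered a robust quasi-likelihood fit in edgeR 4.0.16 under R 4.3.3, with 4 residual degrees of freedom, a separate mean for each group and a common coefficient of biological variation of 0.236. Adjustment over all genes tested followed Benjamini and Hochberg, and an adjusted p under 0.05 was called. With 2 libraries against 2, an exact test cannot go below 0.333. DESeq2 1.42.0, limma-voom (limma 3.58.1), total counts, no filter, only the libraries compared, a replicate block and leaving out each library were alternatives. Libraries of a group differed beyond counting noise (chi-square per degree of freedom 33.7 to 53.5), so none was treated as a copy.

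Symbols were matched by identifier, and for 36 of the 40 genes the span equalled GENCODE M21. The 40 genes, the other lists and the tests were chosen with earlier results of these data known. Library values are given for the 3 genes highest in TPM, for the 3 with the lowest p called in each direction and contrast and for 1 or 2 per role. From other lists up to 4 called genes of lowest p are named. Bst2, Rsad2, Ifit1, Ifit2, Ifit3, Cmpk2, Stat2 and Zbp1 were added after their values were seen. Of the sensing list, Mb21d1 was not matched by symbol and Trex1 had 0 counts.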

Additional observations from a re-analysis of the deposited data

How the results depend on the processing

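In H2R-deficient cells the count of genes called between densities, 32 as reported, stayed within 1.5 times under most settings. It was 10 with total counts only and ran between 17 and 36 when each library was left out in turn, 17 arising when low-density library 1 of H2R-deficient mice was dropped and 20 when their high-density library 2 was. In wild-type cells the count of 2 became 1 with total counts, 5 with DESeq2 size factors in edgeR, 22 without the filter on low counts, 21 with DESeq2, 1 with limma-voom and 0 with only the libraries compared. It ran between 0 and 20 when each library was left out, 20 being without wild-type high-density library 4. Without the filter, which tests 28092 genes, 6 of the interferon-stimulated genes were called between genotypes at low density and 1 at high density. For the difference of effects 3 were called, and other settings called 0 in each of these comparisons. Of all genes, the unfiltered fit called 631 higher and 729 lower in H2R-deficient mice at low density, and 332 and 763 at high density. For the difference of effects it called 901 with a positive and 309 with a negative value. Between densities in wild-type cells it called 2190 higher and 1171 lower. Calls without the filter were thus not confined to the interferon-stimulated genes. The cause of these changes between settings was not tested. Of 34 called gene results under 15 alternatives each, 421 of 510 kept direction and call, 88 kept direction and lost the call, and 1 reversed, Ifi35 with total counts at 0.31. Deviations of same-numbered libraries correlated at 0.359 in H2R-deficient and 0.081 in wild-type mice, and the labels do not tie the numbers to animals. With the replicate number as a block, 37 and 10 of the interferon-stimulated genes were called, and 0 for the difference of effects. Of all genes, the block fit called 4749 higher and 3701 lower in H2R-deficient cells, and 1648 and 972 in wild-type cells. For the difference of effects it called 12 with a positive and 16 with a negative value. No paired analysis was possible for the genotype contrasts, because libraries of different genotype come from different animals.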
